A study of Mus musculus with 3 samples.

Results

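The 9 chemokine genes Cxcl9, Cxcl10, Cxcl16, Cx3cl1, Ccl20, Ccl25, Ccl28, Cxcl1 and Cxcl5 were taken by symbol from the 32285 features of a sc-RNAseq experiment on mouse colon organoids, and all 9 were found. Organoids are three-dimensional epithelial cultures grown from the stem cells of colon crypts. They were kept in a medium with Wnt, R-spondin, EGF and inhibitors of BMP and TGF-β signaling, in which no immune or stromal cells are added. A library of untreated organoids was set beside a library treated with IFN-γ, a cytokine of T cells and NK cells, for 24 h and another treated for 48 h. With 1 library per condition there was no replicate, so no test across samples was possible and no p-value is given. The medium was shared by all 3 libraries, and the tissue for the organoids of the study came from C57bl/6 mice and from Krt20CreErt2 and Axin2CreErt2 reporter strains. Which of these was behind each library, and from how many cultures, is not given in the sources used here. Dead cells had been removed by sorting with DAPI.

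Chemokines are small secreted proteins that bind G protein-coupled receptors and guide the movement of leukocytes. Cxcl9 and Cxcl10 bind CXCR3 on activated T cells and NK cells and are textbook targets of IFN-γ. Cxcl16 and Cx3cl1 are made as transmembrane proteins, which hold cells bearing CXCR6 or CX3CR1 at the surface and act as soluble attractants after cleavage by ADAM proteases. Ccl20 attracts CCR6-bearing lymphocytes and dendritic cells, Ccl25 attracts gut-homing cells with CCR9, and Ccl28 attracts antibody-secreting cells with CCR10 to mucosal surfaces. Cxcl1 and Cxcl5 attract neutrophils through CXCR2 and are known targets of NF-κB.

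Barcodes were taken as cells from 5000 UMIs and 400 genes on, with mitochondrial UMIs up to 15%, which gave 1058 cells of the untreated library, 917 of the 24 h library and 2934 of the 48 h library. The cells held 49801935, 71077817 and 47243500 UMIs, with medians of 33550, 68784 and 10772 UMIs per cell. The libraries shared 1 to 4 cell barcodes pairwise. All 6 epithelial markers were present in each library, at a summed level of 5336 to 8035 CPM (UMIs of a gene scaled to a total of 1000000 UMIs in the cells of the library). Of 12 immune markers, 5 to 7 were at 0 per library, Ptprc and Nkg7 among them in every one, and the list summed to 2.83 to 4.0 CPM, most of it from Cd68. Of 9 stromal markers 5 or 6 were at 0, with sums of 0.886 to 2.51 CPM. Values in parentheses after a ratio are its 95% interval. All intervals cover counting error only.

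The promoters of 7 of the 9 genes were found in RefSeq (GRCm38.p6), as windows of 300 bases with 250 before and 50 after the start site. The windows of Cxcl9 and Cxcl10, whose levels were far higher after IFN-γ, and of Cxcl1 and Ccl20, whose levels were lower, are shown 5′ to 3′ on the strand of the gene. They are Cxcl9 at chr5:92328030-92328329 (minus strand), Cxcl10 at chr5:92348840-92349139 (minus strand), Cxcl1 at chr5:90890995-90891294 (plus strand) and Ccl20 at chr1:83116516-83116815 (plus strand). Capitals mark matches, on either strand, to a gamma-activated site (GAS, TTCNNNGAA), the core of an interferon-stimulated response element (ISRE, GAAA, any 2 bases, GAAA), an NF-κB site (GGG, any 5 bases, CC) or a TATA box (TATAAA).
Cxcl9: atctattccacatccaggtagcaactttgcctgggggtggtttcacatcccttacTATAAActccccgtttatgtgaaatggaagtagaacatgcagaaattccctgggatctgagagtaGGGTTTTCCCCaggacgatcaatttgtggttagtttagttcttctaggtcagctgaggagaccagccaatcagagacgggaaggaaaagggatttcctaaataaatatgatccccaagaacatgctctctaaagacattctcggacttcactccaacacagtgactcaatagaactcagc
Cxcl10: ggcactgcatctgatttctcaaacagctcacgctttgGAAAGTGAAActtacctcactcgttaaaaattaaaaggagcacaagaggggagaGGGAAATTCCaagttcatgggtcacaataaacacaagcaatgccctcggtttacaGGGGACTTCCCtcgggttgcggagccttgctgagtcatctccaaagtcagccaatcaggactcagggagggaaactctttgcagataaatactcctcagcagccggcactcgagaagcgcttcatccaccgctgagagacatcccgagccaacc
Cxcl1: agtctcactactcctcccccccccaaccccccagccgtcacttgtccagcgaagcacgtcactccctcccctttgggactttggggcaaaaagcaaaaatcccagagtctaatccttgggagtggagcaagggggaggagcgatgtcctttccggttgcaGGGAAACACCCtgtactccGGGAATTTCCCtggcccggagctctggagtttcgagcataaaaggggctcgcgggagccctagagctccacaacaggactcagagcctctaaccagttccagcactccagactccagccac
Ccl20: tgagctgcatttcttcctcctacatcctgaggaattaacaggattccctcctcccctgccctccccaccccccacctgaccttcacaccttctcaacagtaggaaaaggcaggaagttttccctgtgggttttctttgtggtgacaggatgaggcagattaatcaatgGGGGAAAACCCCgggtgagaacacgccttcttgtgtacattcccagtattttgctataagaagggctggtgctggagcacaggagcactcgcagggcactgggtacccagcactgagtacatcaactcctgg

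The ISRE core was found in the Cxcl10 window alone among the 7 genes, with 1 match that starts at position -213 from the start site, and it is present in 3.44% of all 32851 promoters of the same length. The NF-κB motif matched in the windows of Cxcl9, Cxcl10, Cxcl1, Ccl20 and Ccl28, and is present in 50.8% of all promoters, so its letters are common. In Cxcl1 the matches start at positions -90 and -71 and in Ccl20 at -82, each overlapping a match of the other strand or a shifted match. The GAS motif, present in 8.3% of promoters, had no match in these windows, which says nothing of sites elsewhere or of IFN-γ elements with other letters in the windows. TATA box letters were found in the windows of Cxcl9 (start at -195), Cx3cl1 (-6) and the second start site of Ccl25 (-16). They occur in 13.6% of promoters, and whether any of them works as a TATA box was not tested.

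In GENCODE vM21 on GRCm38 all 9 genes are annotated as protein coding. Cxcl9 (chr5:92321347-92328079) and Cxcl10 (chr5:92346638-92348889) lie on the minus strand of the same stretch of chromosome 5, and Cxcl5 (chr5:90759360-90761624) and Cxcl1 (chr5:90891241-90893115) lie on its plus strand. Cxcl16 is at chr11:70453983-70459984, Cx3cl1 at chr8:94772009-94782427, Ccl25 at chr8:4325210-4360020, Ccl28 at chr13:119623819-119654359 and Ccl20 at chr1:83116766-83119167. UMIs were counted per whole gene from 3′ ends, so levels are compared between libraries or cells and not between genes.

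The CXCR3 ligands were near 0 in untreated organoids and at 473 to 824 CPM after IFN-γ. Cxcl9 was at 0.0602 CPM in untreated cells (3 UMIs in 3 of 1058 cells), 473 CPM at 24 h and 507 CPM at 48 h. Relative to untreated cells this made a log2 ratio of 12.94 (11.39 to 15.22) for the 24 h library and 13.04 (11.49 to 15.32) for the 48 h library, where the width comes from the 3 untreated UMIs. Cxcl10 was at 2.55 CPM in untreated cells, 824 CPM at 24 h and 648 CPM at 48 h. The log2 ratios of Cxcl10 were 8.34 (8.09 to 8.60) and 7.99 (7.74 to 8.25). Both genes thus stood high in the 24 h and 48 h libraries and low in the untreated one. Between the treated libraries Cxcl10 was lower at 48 h than at 24 h, with a log2 ratio of -0.35, whereas that of Cxcl9 was 0.10 and changed sign to -0.16 when TMM factors replaced the totals.

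At 24 h, 2 of the 9 genes, Cxcl9 and Cxcl10, were at least 2-fold higher than in untreated cells, against 3.46% of the 17412 features with at least 10 UMIs. Another 3, Ccl20, Ccl28 and Cxcl5, were at least 2-fold lower, against 26% of features. At 48 h, 3 genes were higher (Cxcl9, Cxcl10 and Cxcl16), against 5.26%, and 4 were lower (Ccl20, Ccl28, Cxcl1 and Cxcl5), against 16.6%. From 24 h to 48 h none of the 9 was at least 2-fold higher, against 11.6%, and 1 was lower (Ccl20), against 2.31%. Both ratios to the untreated library share that library. The median log2 ratio over all features lay at -0.46 for 24 h and -0.18 for 48 h, and TMM scaling added 0.45 and 0.19 to every ratio, which left Ccl20, Ccl28 and Cxcl5 past 2-fold at both times but not Cxcl1 at 48 h (-0.88).

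**Figure D1:**
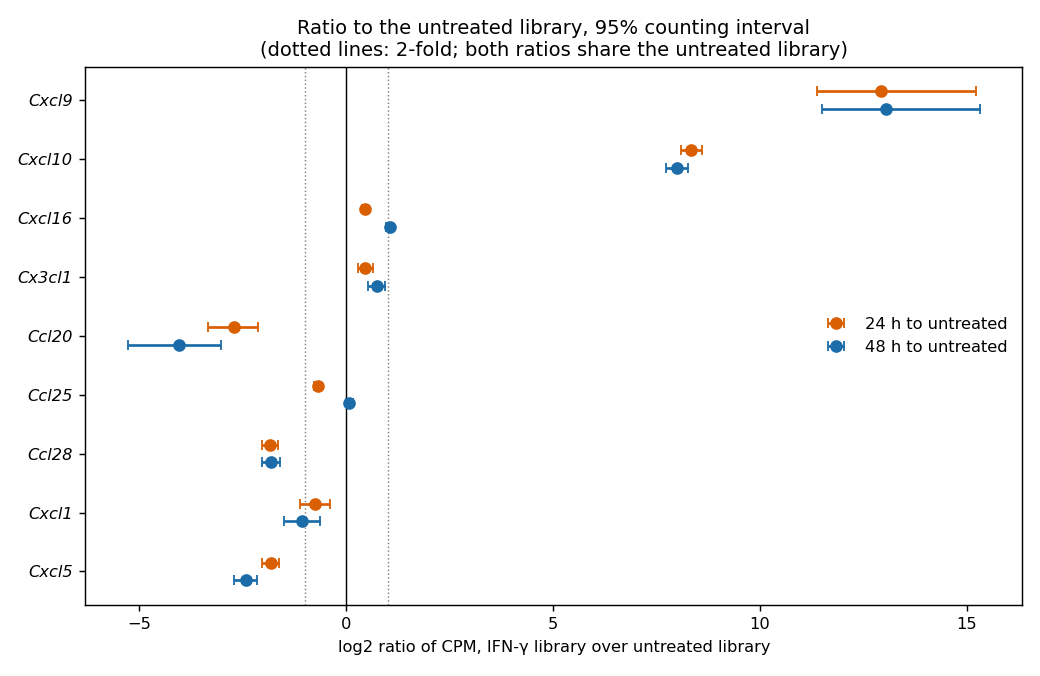
Log2 ratio of the CPM in the IFN-γ library over the untreated library for each of the 9 genes, at 24 h (orange) and 48 h (blue), with bars for the 95% counting interval and dotted lines at 2-fold. Cxcl9 and Cxcl10 lie at 7.99 to 13.04, Cxcl16 and Cx3cl1 at 0.46 to 1.05, with Cxcl16 past 2-fold at 48 h, and Ccl20, Ccl28, Cxcl1 and Cxcl5 below 0 at both times.

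The transmembrane chemokines were expressed without treatment and were moderately higher after it. Cxcl16 was at 44.3 CPM in untreated cells, 61.0 CPM at 24 h and 91.5 CPM at 48 h. For Cxcl16 the log2 ratio to untreated cells was 0.46 (0.39 to 0.54) in the 24 h library and 1.05 (0.97 to 1.12) in the 48 h library, and with TMM factors it was 0.91 and 1.23. Cx3cl1 had 7.09, 9.79 and 11.8 CPM, with log2 ratios of 0.47 (0.28 to 0.66) and 0.73 (0.54 to 0.93), short of 2-fold at both times. Both genes were thus lowest in the untreated library and highest at 48 h, although the 48 h to 24 h log2 ratio of Cx3cl1, 0.27, was 0.01 with TMM factors, -0.01 with DESeq2 size factors and -0.03 with the average of the CPM per cell.

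The mucosal chemokines Ccl28, Ccl25 and Ccl20 differed from one another. Ccl28 was at 16.0 CPM in untreated cells and at 4.47 and 4.55 CPM at 24 h and 48 h, which gave log2 ratios of -1.84 (-2.03 to -1.65) and -1.81 (-2.03 to -1.59). The treated libraries differed from each other by less than counting error (log2 ratio 0.02, interval -0.23 to 0.28). Ccl25 was at 40.8 CPM in untreated cells, 25.3 CPM at 24 h and 43.1 CPM at 48 h. Against untreated cells that was a log2 ratio of -0.69 (-0.78 to -0.60) in the 24 h library and 0.08 (-0.01 to 0.17) in the 48 h library, so the 24 h library stood below both others. With TMM factors the 24 h ratio was -0.24, and over all settings the 48 h ratio ranged from -0.12 to 0.26. Ccl20 was at 2.77 CPM in untreated cells (138 UMIs), 0.422 CPM at 24 h (30 UMIs) and 0.169 CPM at 48 h (8 UMIs). Its log2 ratios were -2.71 (-3.34 to -2.14) and -4.03 (-5.27 to -3.01).

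The neutrophil attractants were also lower after IFN-γ over all cells, Cxcl1 by less and within counting error in most clusters. Cxcl5 was at 14.7 CPM in untreated cells, 4.14 CPM at 24 h and 2.73 CPM at 48 h, with log2 ratios of -1.83 (-2.03 to -1.63) and -2.43 (-2.71 to -2.15). Cxcl1 was at 2.83, 1.67 and 1.35 CPM, from 141, 119 and 64 UMIs. The log2 ratios of Cxcl1 were -0.76 (-1.12 to -0.40) and -1.06 (-1.51 to -0.63), and only the latter passed 2-fold. Both were highest in the untreated library, but the order of the treated libraries was not resolved for Cxcl1, whose 48 h to 24 h ratio was -0.31 (-0.77 to 0.14).

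Depth differed between the libraries, so the share of cells with a UMI was taken after each cell was thinned to 5000 UMIs, and all cells had that depth. Cxcl9 was detected in 0 of 1058 untreated cells (exact upper bound 0.348%), in 56.6% of cells at 24 h and in 72.8% at 48 h, against 0.284%, 85.7% and 88.1% without thinning. Cxcl10 was detected in 0.756%, 74.5% and 82.8% (4.25%, 95% and 93.7% without thinning). For both genes the share at 48 h was above that at 24 h, while the CPM of Cxcl10 was lower at 48 h, so no order of the treated libraries is read from the shares of Cxcl10. Cxcl16 was found in 17.6%, 23.4% and 31.7% of thinned cells (53.5%, 74.9% and 57.5% without thinning), and Cx3cl1 in 3.59%, 5.02% and 6.44% (23.3%, 42% and 15.5%). Ccl25 was found in 23.7%, 14.9% and 21.8% (70.2%, 70.9% and 44.5%), and Ccl28 in 8.88%, 2.07% and 2.83% (35.3%, 22.8% and 6.44%). The thinned shares of Cxcl16, Cx3cl1 and Ccl28 followed the order of their CPM, which the unthinned shares did not. For Cx3cl1 and Ccl28 no order of the treated libraries is read from them, as the 24 h and 48 h intervals overlapped. These were 3.70% to 6.63% and 5.58% to 7.39% for Cx3cl1, and 1.25% to 3.22% and 2.26% to 3.49% for Ccl28. For Ccl25 the thinned share was highest in untreated cells and the CPM at 48 h, so no order of those libraries is read from it. Cxcl5 was found in 3.88%, 1.74% and 1.16% of thinned cells (15.9%, 14.9% and 3.51%). For Ccl20 and Cxcl1 the thinned shares stayed at or below 1.51% and rested on at most 16 cells (5.10%, 2.07% and 0.273%, and 6.52%, 7.63% and 1.70%, without thinning).

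How much of these UMIs could be free RNA was read from the barcodes under 2000 UMIs, since no class of these cells is known to lack the genes. Cxcl9 was at 572 CPM in those barcodes of the 24 h library and at 708 CPM in those of the 48 h library, and Cxcl10 at 917 and 813 CPM. The cells were below this background, by a log2 difference of -0.27 and -0.48 for Cxcl9 and of -0.15 and -0.33 for Cxcl10, as were 22.3% and 20.2% of all features. The median cell held 179 CPM of Cxcl9 at 24 h and 297 CPM at 48 h, and 61.0% and 56.3% of cells lay under 50% of the background level. The most positive cells reached 18468 and 14528 CPM. Free RNA could therefore give a Cxcl9 or Cxcl10 UMI to any treated cell, and its part in the shares and in the differences between cells was not tested. Whether these barcodes are empty droplets was not tested either. In the untreated library the same barcodes held 0.103 CPM of Cxcl9 and 2.85 CPM of Cxcl10.

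The other genes differed in how far the cells stood above these barcodes. Ccl25 was at least 2-fold above them in every library, with 10.9, 10.2 and 7.83 CPM outside the cells and log2 differences of 1.91, 1.32 and 2.46. For Cx3cl1 the log2 differences were 1.04, 0.99 and 1.73. Thus 2, 1 and 2 of the 9 genes were at least 2-fold above the barcodes under 2000 UMIs, against 39.2%, 31.9% and 47.8% of features in the 3 libraries. Ccl28 was higher in cells by 0.81, 0.14 and 0.86. Cxcl16 was close to its background, by 0.04, 0.24 and 0.13, and its background was higher in the treated libraries as well, at 42.9, 51.5 and 83.8 CPM. Cxcl1 was below its background in untreated cells (-0.51) and at 24 h (-0.72), and Cxcl5 in untreated cells (-0.36). The intervals of Ccl20 included 0 in every library. The background itself was lower after treatment for Cxcl5 (18.8, 4.92 and 2.04 CPM) and Cxcl1 (4.02, 2.76 and 1.57 CPM). The same held for Ccl20 (2.99, 0.468 and 0.157 CPM) and Ccl28 (9.08, 4.07 and 2.51 CPM). The part of free RNA in the lower levels of these genes was not tested.

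**Figure D2:**
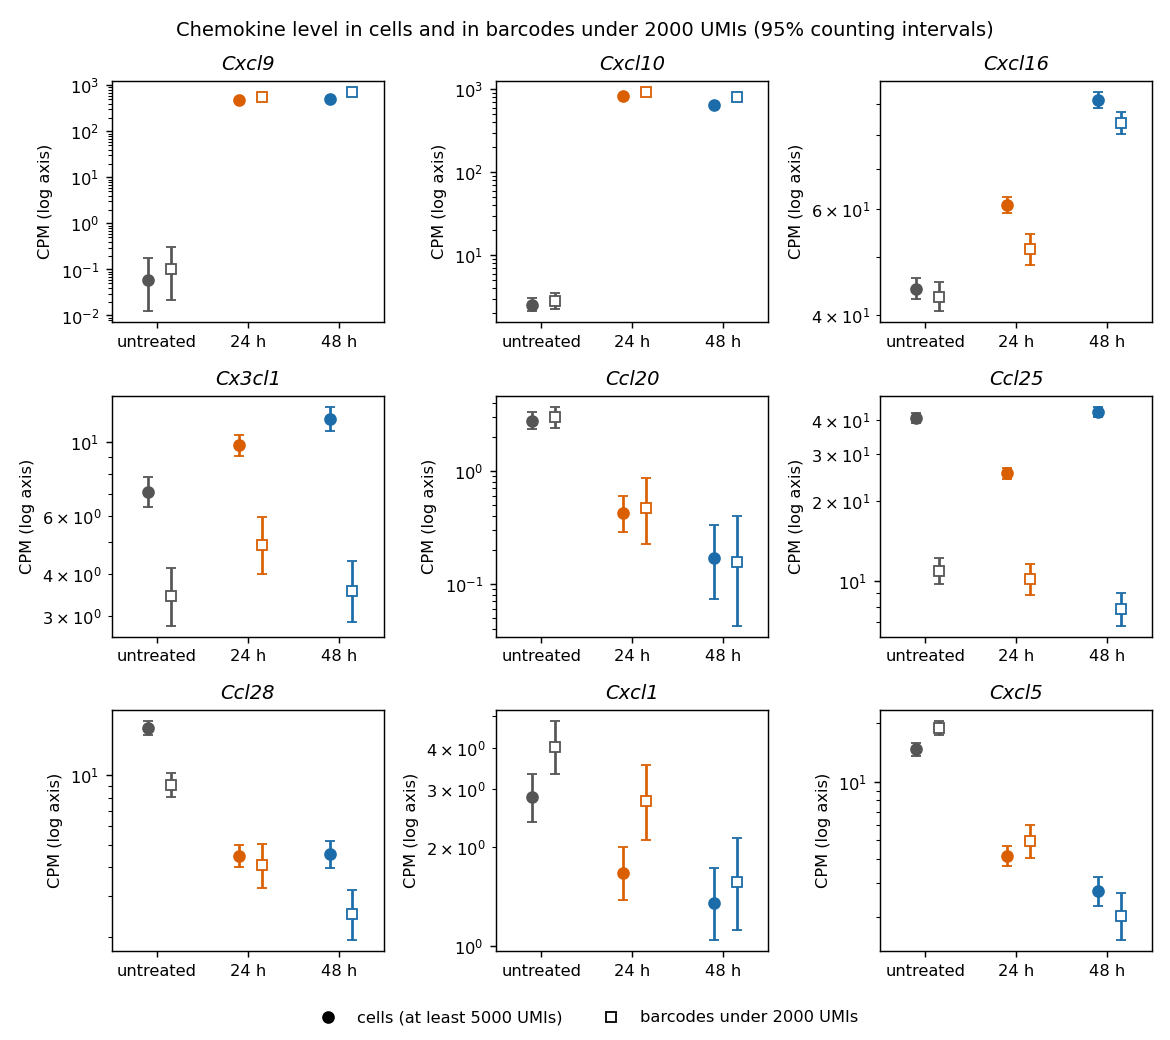
CPM (log axis) of each of the 9 genes in cells (filled circles) and in barcodes under 2000 UMIs (open squares) of the untreated, 24 h and 48 h libraries, with 95% counting intervals. Cxcl9 and Cxcl10 lie slightly higher outside the cells than in them at both treatment times, whereas Ccl25 and Cx3cl1 lie above their background in all 3 libraries.

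Several genes were held by very few cells. In the untreated library 50% of the Ccl20 UMIs lay in 3 cells (0.284% of cells), 50% of the Cxcl10 UMIs in 6 cells (0.567%), of Cxcl5 in 10 cells (0.945%) and of Cxcl1 in 13 cells (1.23%). For all UMIs of that library it took 20.8% of the cells. The same part of the Cx3cl1, Cxcl16 and Ccl28 UMIs was held by 6.99%, 7.75% and 8.22% of untreated cells, whereas Ccl25 needed 16.0%. Thus 7 of the 8 genes with at least 30 UMIs had 50% of their UMIs in at most 10% of untreated cells, against 45.4% of features. At 24 h this held for 5 of 9 genes, against 36.2%, and at 48 h for 5 of 8, against 59.8%, in libraries of other depths. For genes with few UMIs this was fixed in advance, since 50% of them cannot fill more than 10% of the cells. That held for Cxcl10, Ccl20 and Cxcl1 in untreated cells (127, 138 and 141 UMIs) and Ccl20 and Cxcl1 at 24 h (30 and 119). At 48 h it held for Cx3cl1, Ccl28, Cxcl5 and Cxcl1 (557, 215, 129 and 64). The counts are thus not read as a result about these genes.

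After treatment 50% of the Cxcl10 UMIs lay in 10.9% of cells at 24 h and 14.3% at 48 h, from 58583 and 30601 UMIs against 127 in untreated cells, so these shares are not compared with the untreated one. For Cxcl9 they were 7.42% and 9.58%. In cells thinned to 5000 UMIs the variance of Cxcl9 over its mean was 8.97 at 24 h and 5.54 at 48 h, and that of Cxcl10 was 6.54 and 3.77, where counting alone gives 1. Among untreated cells the variance over the mean was 4.77 for Cxcl10, 2.94 for Cxcl5, 1.98 for Cxcl1 and 1.45 for Ccl20. For Ccl25 it was 1.06, 1.04 and 1.1 in the 3 libraries. Counts of Cxcl5 and Cxcl1 after treatment were too low to read a concentration at 48 h, where 129 and 64 UMIs can fill few of 2934 cells and the variance over the mean was 1.05 and 0.995, near that of counting. At 24 h it was 1.65 and 1.41. For Cx3cl1 and Ccl28 at 48 h it was 0.986 and 1.06, also near that of counting.

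**Figure D3:**
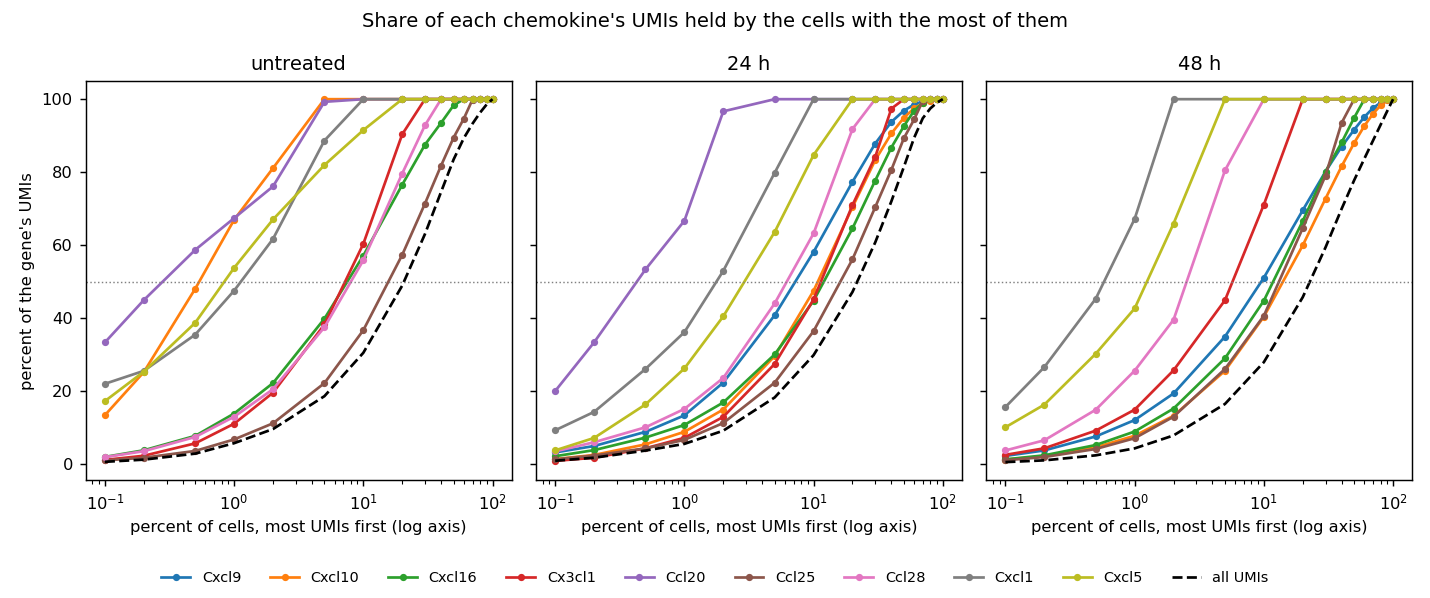
Percent of a gene's UMIs (vertical axis) held by the percent of cells with the most of them (horizontal log axis), for the 9 genes and for all UMIs (dashed), in each library. In untreated cells the curves of Ccl20, Cxcl10, Cxcl5 and Cxcl1 reach 50% at 0.284% to 1.23% of cells, and in treated cells, with many more UMIs, that of Cxcl10 does so at 10.9% and 14.3%.

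The cells with the most untreated Cxcl10 and Ccl20 were looked at one by one, a choice made after their values were seen. The 6 cells that held 50% of Cxcl10 had 66 of its UMIs and lay in 2 clusters. Irf1, a transcription factor induced by interferons, was at 42.6 CPM in these 6 cells and at 23.3 CPM in the other untreated cells. Nfkbia, an inhibitor and target of NF-κB, was at 505 and 181 CPM. A single untreated cell of 69157 UMIs held 46 UMIs of Ccl20, 31 of Cxcl1 and 26 of Cxcl2, another neutrophil attractant. That colonocyte-like cell is 1 of 1058, and the library held 138 Ccl20 UMIs in all. The 10 cells with 50% of the Cxcl5 UMIs held 1 UMI of Cxcl1 and 18 of Ccl20. Leaving out the 1% of cells with the most UMIs of each gene gave log2 ratios at 24 h of 9.84 for Cxcl10, -2.68 for Ccl20, -1.17 for Cxcl5 and -0.47 for Cxcl1.

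Clusters were made without the 9 genes, and cells were named only where fixed markers allowed it. Cluster 1, led by Nusap1 and Ube2c, was proliferating-like, cluster 4, led by Krt20 and Slc26a3, colonocyte-like, clusters 5 and 6, the latter led by Spink4 and Muc2, goblet-like, and cluster 7, led by Chgb and Chga, enteroendocrine-like. Cluster 0 (Lrrc4, AY036118, Sorbs2os, Gm20528, Angpt2), with 10 stem markers above the other cells, cluster 2 (Hist1h1a, Ung, Ccne2), cluster 3 (Stox2, Edn1, Msln) and cluster 8 (Gm26917, Lars2) stayed unnamed. The median cell of clusters 0, 5 and 8 fell well short of the median depth of all cells in a library or more. The part of depth in the levels of these clusters was not tested. Differences between clusters are given as log2 differences of CPM between the cells of a cluster and the other cells of the library, with no test. Ratios within a cluster rest on the integration of the libraries. Whether the treated and untreated cells of a cluster are of the same state was not tested.

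Cxcl16 was highest in cluster 3 in every library, at 102, 145 and 166 CPM, a log2 difference of 1.42, 1.43 and 0.99. It was low in untreated enteroendocrine-like cells (10.6 CPM, from 6 UMIs) and in the goblet-like cells of cluster 6 (14.2 CPM). The largest 48 h ratio among the clusters with at least 20 cells in both libraries was that of cluster 6, at 72.4 CPM and a log2 ratio of 2.35 (1.95 to 2.76). In cluster 3 that ratio was 0.70 (0.53 to 0.86). Ccl25 was high in cluster 0 of each library, at 77.7, 61.9 and 62.1 CPM, a log2 difference of 1.13, 1.40 and 0.75. It was also high in the goblet-like cells of cluster 5 (70.03, 62.6 and 54.2 CPM) and in enteroendocrine-like cells, at 77.9 CPM untreated and 65.7 CPM at 48 h. Clusters 0 and 5 are among those of low depth given above. The lowest 24 h ratio of Ccl25 was that of colonocyte-like cells, at 14.7 CPM, a log2 ratio of -1.25 (-1.58 to -0.93).

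Ccl28 was highest in untreated colonocyte-like cells (31.9 CPM, log2 difference 1.27) and in cluster 0 (25.7 CPM), and lowest in the goblet-like cells of cluster 6 (5.92 CPM). In colonocyte-like cells it was at 6.48 CPM at 24 h and 5.34 CPM at 48 h, log2 ratios of -2.30 and -2.58. Cx3cl1 was also highest among the larger untreated clusters in colonocyte-like cells, at 13 CPM (log2 difference 1.09), with 15.7 and 18.8 CPM after treatment. Of the 138 untreated Ccl20 UMIs 73 lay in this cluster, 46 of them in the single cell described above, and the level was 10.1 CPM with that cell and 3.77 CPM without it. Untreated Cxcl5 was at 26.2 CPM in cluster 2 and 22.7 CPM in cluster 3, but a single cell held 126 of the 260 UMIs in the former and another 44 of the 107 in the latter. Without the highest cell both were at 13.7 CPM, beside 12.4 CPM in cluster 0 and 11.7 CPM in cluster 1 treated the same way, a choice made after the values were seen. Cluster 6 had 0.898 CPM with all its cells and cluster 5 no UMI. At 24 h Cx3cl1 reached 77.6 CPM in cluster 8, but from 15 UMIs in 26 cells with a median of 6750 UMIs.

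The ratio to the untreated library was read cluster by cluster, over the 7 clusters with at least 20 cells in both libraries at 24 h and the 8 at 48 h. Cxcl9, Cxcl10 and Cxcl16 were higher in all 7 and all 8 of them, each with an interval above 0. The log2 ratio of Cxcl10 ranged from 6.79 to 10.30 at 24 h and from 6.79 to 10.07 at 48 h, and that of Cxcl16 from 0.25 to 1.44 and from 0.70 to 2.35. At both times 7 clusters held at least 10 UMIs of Ccl28 and of Cx3cl1. Ccl28 was lower in these 7, with 5 intervals below 0. Cx3cl1 was higher in its 7, with 4 and 6 intervals above 0. Ccl25 was lower in all 7 at 24 h, with 6 intervals below 0, but at 48 h higher in 4 and lower in 4. At 24 h its log2 ratio was -0.33, -0.27 and -0.16 in clusters 0, 2 and 5. These would lie above 0 with the TMM shift of 0.45 found over all cells, so the direction of Ccl25 there depends on the scaling. Cxcl5 was lower in its 5 clusters with at least 10 UMIs at both times, with 5 and 4 intervals below 0. Cxcl1 was higher in 2 and lower in 4 of 6 clusters at 24 h, from -2.77 to 0.57 with 1 interval below 0, that of the colonocyte-like cells whose untreated level rests on 1 cell. At 48 h it was higher in 1 and lower in 5, with 2 intervals below 0. No Cxcl1 interval lay above 0 at either time, and the 24 h log2 ratio of cluster 3, counted as higher, was 0.0006. The shared direction at 24 h and 48 h rests in part on the shared untreated cells.

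In each library 8 clusters had at least 20 cells. A cluster at least 2-fold above the other cells was found for 8 of 8 genes in the untreated library, against 50.5% of features, for 5 of 9 at 24 h, against 48.7%, and for 3 of 8 at 48 h, against 28.9%. These counts moved with the clustering, and at a resolution of 0.3 the untreated count was 4. Single cells also weighed on them. Untreated Cxcl1 in colonocyte-like cells was at 5.11 CPM with its highest cell and 0.837 CPM without it. Untreated Cxcl5 in cluster 2 was at 26.2 CPM with its highest cell and 13.7 CPM without it. The counts are thus not read as a result about these genes.

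**Figure D4:**
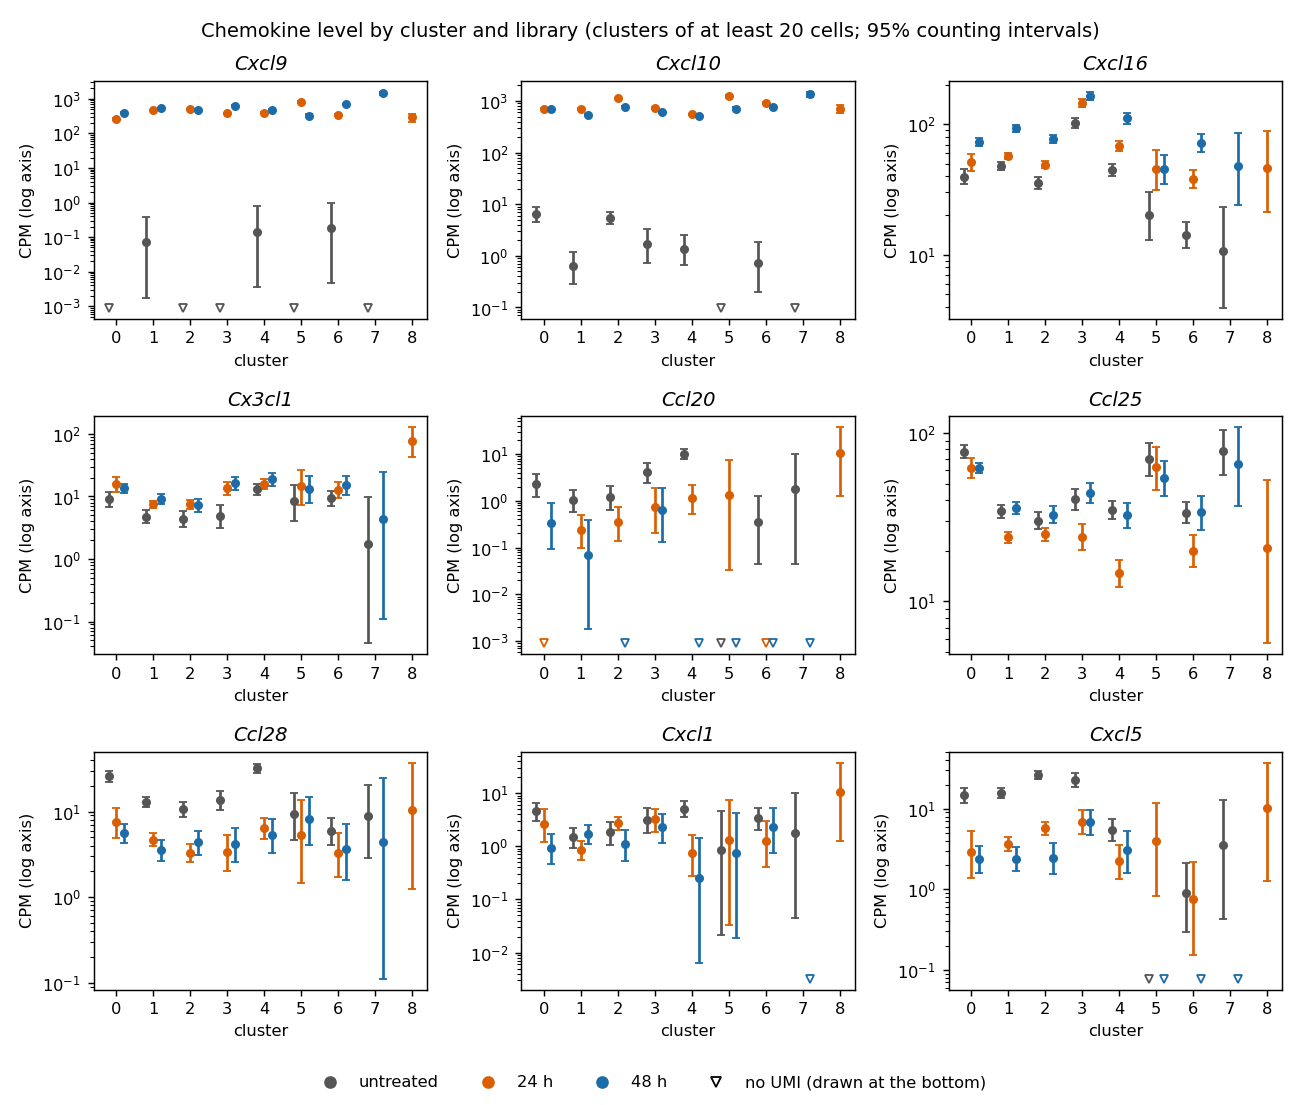
CPM (log axis) of each gene by cluster in the untreated, 24 h and 48 h libraries, for clusters of at least 20 cells, with 95% counting intervals and open triangles for clusters with no UMI. Treated Cxcl9 and Cxcl10 are above untreated cells in each cluster drawn for both, Cxcl16 peaks in cluster 3 in each library, and Ccl25 is high in cluster 0.

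Cxcl9 was uneven in the enteroendocrine-like cells. At 24 h the cluster had 12 cells, below the minimum of 20, and 1751 Cxcl9 UMIs, 1070 of them in a single cell of 57939 UMIs and 362 in the next. Without the highest cell the level was 2322 CPM. The median cell of the cluster held 120 CPM, below the 179 CPM of the median cell of the 24 h library. At 48 h its 21 cells held 328 Cxcl9 UMIs, 163 of them in a single cell, and the level was 1436 CPM with that cell and 760 CPM without it. The median cell of the cluster then held 282 CPM, near the 297 CPM of the median cell of the 48 h library.

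The ratio of Cxcl9 to Cxcl10 UMIs was 0.574 over all cells at 24 h and 0.783 at 48 h, beside 0.624 and 0.870 in the barcodes under 2000 UMIs. At 24 h it was lowest in cluster 0, at 0.358 (0.331 to 0.387), and 0.383 in the goblet-like cluster 6. In colonocyte-like cells it was 0.724 (0.691 to 0.758). The 12 enteroendocrine-like cells had 7.12, with 1070 of their 1751 Cxcl9 UMIs in a single cell and 362 in the next. The median over these cells was 120 CPM for Cxcl9 and 222 CPM for Cxcl10. At 48 h it was 0.460 (0.410 to 0.516) in the goblet-like cluster 5, which had 0.664 at 24 h. Clusters 3 and 4 had 1.05 and 0.979 at 48 h, and the 21 enteroendocrine-like cells 1.07 (0.912 to 1.25).

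Across thinned cells the gene most alike to Cxcl9 was Cxcl10, with a Pearson r of 0.40 over 917 cells at 24 h and 0.29 over 2934 cells at 48 h. It was followed for Cxcl9 by Ifitm3 (0.40 and 0.24), a membrane protein that restricts viruses, and for Cxcl10 by Gbp5 (0.40 and 0.28), a guanylate-binding protein. The third genes were Gbp5 for Cxcl9 (0.29) and Ifitm3 for Cxcl10 (0.30) at 24 h, and AW112010 (0.23) and Icam1 (0.19) at 48 h. The cells of a library may share free RNA, and no p is given. For the other genes r was at most 0.26, which is weak in sparse counts. In untreated cells the leading genes were Ahnak (0.26), Ly6g and Ly6a for Cxcl16, Tcf4, Foxp1 and Ccser1 (each 0.19) for Ccl25, and Hsd3b3 (0.24), Synpo and Pparg for Ccl28. After treatment they were Ly6g, Actb and Areg at 24 h and S100a6, Ubd and Ly6g at 48 h for Cxcl16, Lrrc4, Snd1 and Fryl and then Gm42418, Malat1 and Gphn for Ccl25, and Smad7, Klf10 and Il31ra at 24 h for Cx3cl1. Cxcl9 and Cxcl16 had an r of 0.12 and 0.05.

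Of 29 other chemokine ligands listed, 25 stood for a single feature and 12 had at least 10 UMIs at 24 h. At 24 h 3 were at least 2-fold higher and 4 lower, beside 3.46% and 26% of all features. At 48 h 3 of 11 were higher and 3 lower, beside 5.26% and 16.6%. The median log2 ratio was 0.05 and -0.24, beside -0.46 and -0.18 over all features. The monocyte attractant Ccl2 was at 4.92, 27.5 and 19.9 CPM, with log2 ratios of 2.49 and 2.02. Ccl5, which attracts T cells, was at 0.161, 5.74 and 10.3 CPM, with ratios of 5.16 and 6.01. Ccl8 was at 0.201, 7.40 and 9.63 CPM, with ratios of 5.2 and 5.58. Ccl9 was lower, at 6.87, 1.01 and 0.593 CPM (ratios -2.76 and -3.53), as was Ccl6, at 9.14, 4.32 and 2.31 CPM (ratios -1.08 and -1.99). With the TMM shift Ccl6 at 24 h would lie within 2-fold, as would Ifngr2 and Tnfaip3 at 24 h and Timp3 at 48 h among the genes given next. The 4 listed symbols without a single feature were Cxcl11, which was not among the features, and Ccl19, Ccl21a and Ccl27a, which each stood for several.

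The receptors of these ligands were scarce or not detected in the organoid cells. No UMI was found for Cxcr3, the receptor of Cxcl9 and Cxcl10, or for Ccr6, the receptor of Ccl20, in any of the 3 libraries. Ccr10 had 1, 1 and 2 UMIs and Cxcr2 6, 8 and 10. Cxcr6, the receptor of Cxcl16, was at 0.783, 0.295 and 0.466 CPM, Ccr9, that of Ccl25, at 1.47, 0.492 and 0.762 CPM, and Cx3cr1 at 3.47, 1.27 and 2.14 CPM. Of 23 receptors 9 had at least 10 UMIs at 24 h, of which 1 was at least 2-fold higher and 5 lower, with a median log2 ratio of -1.41, beside 3.46% and 26% of all features and their median of -0.46. At 48 h 1 of 8 was higher and 1 lower, with a median of -0.31, beside 5.26%, 16.6% and -0.18. The atypical receptor Ccrl2, which presents chemerin, was higher, at 0.663, 2.52 and 2.73 CPM (ratios 1.93 and 2.04). Ackr4, a scavenger of Ccl25 among others, was lower, at 3.63, 0.971 and 1.33 CPM (ratios -1.90 and -1.45).

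**Figure D5:**
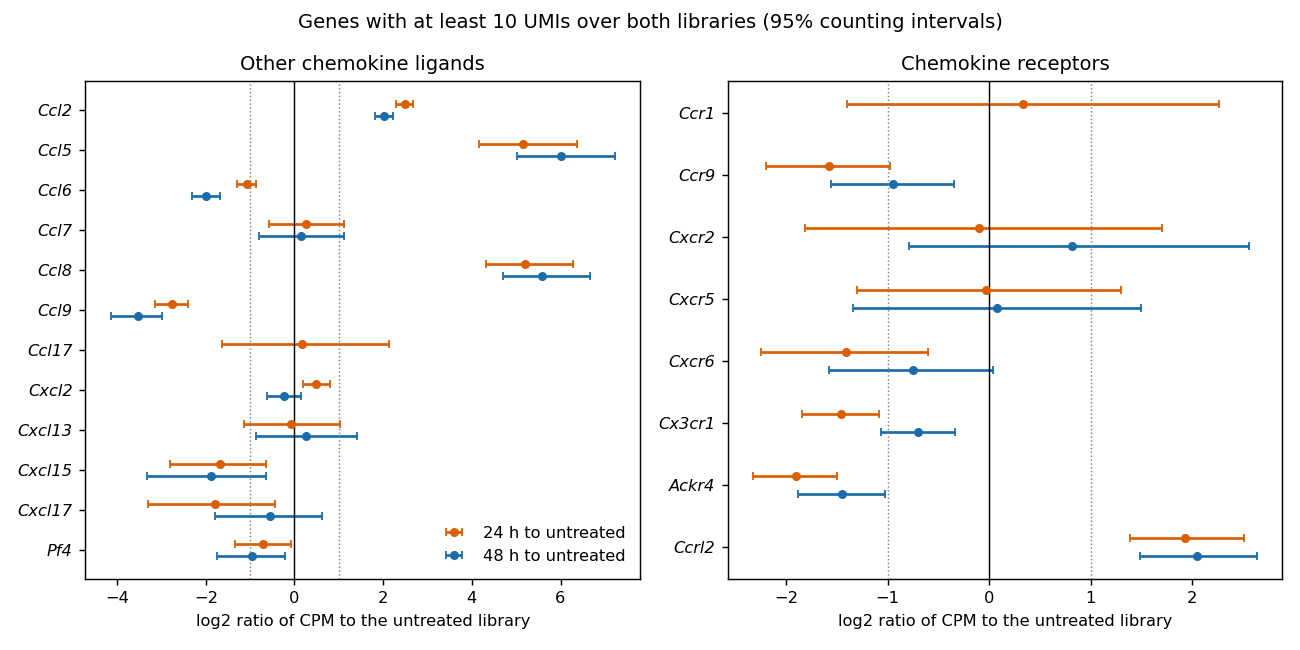
Log2 ratio of CPM to the untreated library at 24 h (orange) and 48 h (blue) for the other chemokine ligands (left) and receptors (right) with at least 10 UMIs over both libraries, 1 receptor left out, with 95% counting intervals and dotted lines at 2-fold. Ccl2, Ccl5, Ccl8 and Ccrl2 lie above 2-fold at both times, and Ccl6, Ccl9 and Ackr4 lie below it.

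The proteases that cut the transmembrane chemokines were present. Adam10 was at 105, 68.0 and 88.2 CPM (log2 ratios -0.63 and -0.25) and Adam17 at 31.1, 25.6 and 34.0 CPM (-0.28 and 0.13). Adam9 was at 17.2, 14.3 and 22.7 CPM (-0.26 and 0.40). Timp3, an inhibitor of Adam17, was lower, at 13.5, 2.94 and 6.31 CPM (-2.20 and -1.10). Of the 5 genes of this list, with Dpp4, which trims Cxcl9 and Cxcl10, none was at least 2-fold higher, and 2 at 24 h and 1 at 48 h were lower, beside 26% and 16.6% of all features. The medians, -0.63 and -0.25, were near those of all features, -0.46 and -0.18.

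Of 10 genes of the IFN-γ pathway 6 were at least 2-fold higher and 1 lower at both times, with a median log2 ratio of 2.0 and 2.02. Over all features 3.46% were higher and 26% lower at 24 h, and 5.26% and 16.6% at 48 h, with medians of -0.46 and -0.18. Irf1 was at 23.5, 331 and 310 CPM and Irf8, another transcription factor of the family, at 43.1, 295 and 267 CPM. Irf9 was at 7.63, 17.9 and 20.2 CPM. Socs1, the feedback inhibitor, was at 1.29, 79.2 and 38.3 CPM, and Gbp2 at 0.0402 CPM (2 UMIs), 571 and 639 CPM. The receptor chain Ifngr2 was lower, at 76.5, 34.6 and 27.9 CPM, with log2 ratios of -1.15 and -1.46, while Ifngr1 (-0.99 and -0.85), Jak1 (-0.36 and -0.18) and Jak2 (-0.02 and 0.43) did not pass 2-fold.

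Of 14 genes of the NF-κB pathway none was at least 2-fold higher at either time, and Tnfaip3, an inhibitor of the pathway, was lower at 24 h, at 36.8 and 15.8 CPM (log2 ratio -1.22), with 19.8 CPM at 48 h (-0.90). The medians were -0.31 and 0.06, beside -0.46 and -0.18 over all features. Of those features 3.46% were at least 2-fold higher and 26% lower at 24 h, and 5.26% and 16.6% at 48 h. Nfkbia was at 184, 162 and 99.8 CPM (-0.18 and -0.88), and the subunits Rela (0.14 and 0.63) and Nfkb1 (-0.19 and 0.40) stayed within 2-fold. Nfkbib was at 31.6, 55.7 and 55.2 CPM (0.82 and 0.81), Rel at 33.9, 20.8 and 22.1 CPM (-0.70 and -0.61) and Relb at 60.5, 39.2 and 50.8 CPM (-0.63 and -0.25). The other genes named by the rule were Nfkb2 (-0.05 and 0.40), Nfkbiz (-0.37 and 0.18), Bcl3 (0.02 and -0.07), Ikbkb (-0.31 and 0.31), Chuk (-0.30 and -0.21) and Ikbkg (-0.67 and 0.07).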

How the data were processed

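Single cells from 3 colon organoid libraries were measured with 3′ v3 chemistry in droplets. The authors ran Cell Ranger 6.0.1 against the mm10 build, as the submitters' processing notes give it, and deposited UMI counts per gene and barcode, as whole numbers without normalization. The annotation release is not given in the sources used here. The matrices still held barcodes down to 1390, 851 and 1624 UMIs.

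Counts of the cells that passed the filter of the study were summed per library and divided by their total (CPM). Ratios have conditional binomial, sums exact Poisson and shares Clopper-Pearson intervals. A ratio was read from 10 UMIs over both libraries on. Barcodes under 2000 UMIs served as the background and were not tested for being empty. Concentration and clusters were read from 30 UMIs on. Seurat 5.3.0 integrated the libraries by CCA over 30 dimensions with 2000 variable genes, without the 9 chemokines, and clustered 20 principal components at a resolution of 0.5. Free RNA was not removed and no doublet caller was run, so doublets were kept. TMM factors came from edgeR 4.0.16 and size factors from DESeq2 1.42.0. Python 3.11.15 and R 4.3.3 were used. The ratios and the thinning were tested on simulated counts with counting error only. The clusters, the concentration, the background and the correlations were not tested in this way.

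The genes and lists were chosen with earlier results of these data known. Named are the 9 genes, list genes with at least 10 CPM in a library or past 2-fold at both times with at least 30 UMIs in a library, the 3 genes most alike to a chemokine found in at least 5% of thinned cells, of which those of weak correlation are left out, and leading genes of clusters. Receptors and other genes below these limits were named after their values were seen. Some genes that the rule or the lists hold are counted but not reported here.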

Additional observations from a re-analysis of the deposited data

Results flagged for a closer look

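Ccl25 was the gene whose ratios to the untreated library pointed in opposite directions at the treatment times, being -0.69 on the log2 scale after 24 h and 0.08 after 48 h. The difference was not tested, the 48 h interval (-0.01 to 0.17) includes 0, and both ratios share the untreated library.

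Barcodes with at least 5000 UMIs that were left out for more than 15% mitochondrial UMIs also held the CXCR3 ligands. Cxcl9 was at 192 CPM in 67 such barcodes at 24 h and 292 CPM in 139 at 48 h, against 0 in 278 untreated ones, with an exact upper bound of 1.05 CPM. Cxcl10 was at 538 and 640 CPM, against 5.68 CPM. Barcodes under 2000 UMIs of the same libraries held these genes as well, and the part of free RNA was not tested.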

How the results depend on the processing

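No paired analysis was possible because each condition has 1 library. Of the counts over the 9 genes, 94 values under other settings stayed within 1.5 times and 8 did not. The number at least 2-fold lower at 48 h than at 24 h was 2 in place of 1 (Ccl20 and Cxcl1) with the mean CPM of single cells and without the 1% of cells with the most UMIs of the gene. The number with a cluster at least 2-fold above the other cells went from 8 to 4 in the untreated library at a resolution of 0.3. At 48 h it went from 3 to 7 at a resolution of 1 and to 1 without integration. With marker classes in place of clusters it was 5 in the untreated library, 3 in place of 5 at 24 h and 1 at 48 h. The cause was not tested. For single genes 231 values stayed within their counting error and 114 moved beyond it. Over the settings tried, the log2 ratio of Cxcl10 ran from 7.49 to 9.84 at 24 h and from 7.24 to 9.48 at 48 h, that of Ccl20 from -2.95 to -1.68 and from -4.45 to -3.17, that of Cxcl5 from -1.89 to -1.16 and from -2.47 to -2.10, and that of Cxcl16 in the 48 h library from 0.89 to 1.23, under 2-fold in thinned cells. Cxcl1 at 48 h ran from -1.89 to -0.77 and was under 2-fold with TMM or DESeq2 factors, at least 10000 UMIs per cell or at most 10% mitochondrial UMIs. With 8 to 141 UMIs, the counts of Ccl20 and Cxcl1 and the 3 untreated Cxcl9 UMIs limit the precision of those ratios.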
